A study of Rattus norvegicus with 15 samples.

Results

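The genes described here encode the protein components of the cytosolic ribosome, measured in kidneys of 5-week-old rats. Members were chosen by name from the symbols of the array annotation: every probe set with a single symbol of the form Rpl or Rps followed by a number, with or without one of the endings a, x, y, l1 or l, together with Rplp0, Rplp1, Rplp2 and Rpsa. The name rule itself uses no measured value, but this gene family was taken up with earlier results of these data known. This gave 97 probe sets for 56 genes out of 26379 probe sets on 3 oligonucleotide array designs, A, B and C, with 58 on A, 17 on B and 22 on C. By the prefix of the symbol alone, paralogs included, 37 genes were assigned to the large 60S subunit and 19 to the small 40S subunit. After a filter on low signal, 87 of the 97 were analysed, for 54 genes.

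All animals share the Dahl salt-sensitive (Dahl S) background, an inbred rat strain that becomes hypertensive when fed salt. The other strain is a congenic line on that background that carries a segment of chromosome 10 from a donor strain, so that a kidney of each strain differs by that segment. Not given in the sources used here are the donor, the ends of the segment, and whether a sample is 1 animal or a pool. Each design had 5 arrays, numbered by kidney. On designs B and C, kidneys 1 to 3 were Dahl S (n = 3) and kidneys 4 and 5 congenic (n = 2). On design A all 5 are described as Dahl S, but because numbers 4 and 5 are congenic on the other designs, the strain of kidneys 4 and 5 on A was left unsettled, and their values are given one by one. Nothing says that a strain's kidneys came from separate animals, so the tests rest on the spread between these samples alone, and that spread may be technical.

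The ribosome translates mRNA into protein. Its small subunit holds the mRNA and reads codons, its large subunit joins amino acids, and each ribosomal protein is normally needed in about equal number, so that their genes are transcribed and translated in concert. Most of their mRNAs begin with a C followed by a run of pyrimidines, called a 5' terminal oligopyrimidine (TOP) start, through which their translation is switched with nutrient and growth signals. In the kidney, as in other tissues, the mRNAs are abundant in all cell types, so a tissue sample reports an average over tubule, vessel, glomerular and blood-borne cells. In bulk tissue, fewer cells of a type and less RNA per cell cannot be told apart.

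The start of these genes is where the TOP sequence lies, and the 30 bases around the start (15 before it and 15 from it on) are shown for members whose values are described below. RefSeq sequences of rat assembly GRCr8 were found for 50 of the 56 genes. Capitals mark the longest pyrimidine run in each window (the first, where several tie), read 5' to 3' on the strand of the gene.
Rps27 (chr2:177964592-177964621, minus strand): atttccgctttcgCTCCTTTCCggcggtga
Rpl23 (chr10:83272170-83272199, minus strand): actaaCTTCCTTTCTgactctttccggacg
Rpl28 (chr1:78083518-78083547, minus strand): ccccgcccctagtgTCTTTCTTTCCgtctc
Rps21 (chr3:187724023-187724052, plus strand): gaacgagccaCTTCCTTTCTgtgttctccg
Rpl37a (chr9:81748076-81748105, plus strand): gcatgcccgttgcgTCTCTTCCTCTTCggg
Rplp0 (chr12:46718376-46718405, minus strand): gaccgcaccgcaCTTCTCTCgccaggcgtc
Rps28 (chr7:15311319-15311348, minus strand): gcatcccctgctcacgtgaCTCCTCTCCgc
Rpl22l1 (chr2:113683181-113683210, plus strand): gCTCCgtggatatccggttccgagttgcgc
Rpl7l1 (chr9:21695703-21695732, plus strand): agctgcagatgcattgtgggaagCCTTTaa
Rpl11 (chr5:153560788-153560817, minus strand): ggggaCTTgaagcttgtttggtgctgggga
Rps16 (chr1:92770643-92770672, plus strand): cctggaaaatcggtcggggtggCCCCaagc

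The first 7 windows have long runs. The last 4 are shown as examples of short ones: the paralogs Rpl22l1 and Rpl7l1 (a copy of Rpl22 and of Rpl7), with longest runs of 4 and 5 bases, and Rpl11 and Rps16, with 3 and 4. A longest run of 5 bases or fewer was found in 13 of the 50 matched genes, so it is not a mark of paralogs alone. Over the 50 matched genes, a C at the annotated start followed by 4 pyrimidines was present in 18 (36.0%), against 2.63% of the 33469 starts in the table. A run of 7 or more pyrimidines within 15 bases of the start was present in 34 (68.0%), against 17.9% of all starts. The letters CTTTCC, which are pyrimidines and so overlap both features, were present on the strand of the gene in the 300 bases around the start in 19 genes (38.0%, against 13.4% of all) and on the opposite strand in 7 (14.0%, against 14.7%). These features were chosen after the sequences were seen and are descriptions; a gene without them is only a gene whose annotated window lacks these letters.

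**Figure D1:**
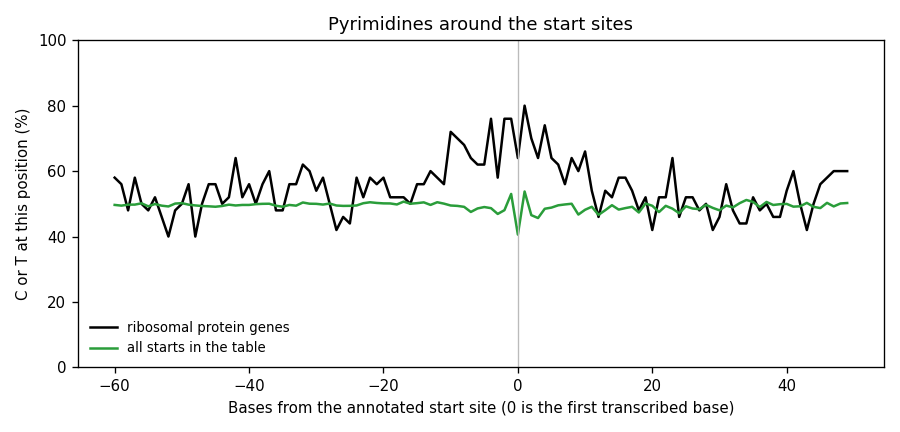
Share of starts with a C or T at each base from 60 before to 49 after the annotated start site (0 is the first transcribed base), for the 50 matched ribosomal protein genes (black) and all 33469 starts in the RefSeq table (green). The ribosomal protein line lies above the other over about 10 bases before and after the start and near it elsewhere.

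The values are linear signal intensities, scaled by the authors. The mean without the top and bottom 2% was between 1000.6 and 1001.3 on every array. Arrays have no read depth. Precision is limited by the number of arrays, and for single genes also by probe sets that disagree or may cross-hybridise. On A the median signal of an array lay between 294.5 and 334.3; for B the range was 472.8 to 519.5, and for C 491.3 to 524.4. Of kidney tubule markers, all 21 probe sets on A were above the filter, while 0 of 4 adrenal and 0 of 4 skeletal muscle marker probe sets on A were. Some markers of other tissues did pass: Lep of adipocytes on A (4088 to 6334), Adipoq of adipocytes on C (401.4 to 644.6) and Myh4 of skeletal muscle on C (2083 to 2863). On A, 48 of the 56 analysed members had a mean signal at or above the 90th percentile of the array, on B 10 of 13 and on C 11 of 18. A signal compares arrays for 1 probe set and not 1 probe set with another.

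The state of each kidney was read, for each probe set, as its log2 difference from the mean of Dahl S kidneys 1 to 3. Within Dahl S, kidney 2 was low and kidney 3 high on each design. The member median of kidney 2 was -0.10 on A, -0.16 on B and -0.08 on C. That of kidney 3 was 0.09, 0.14 and 0.11. Kidney 1 lay between them, at 0.04, 0.03 and 0.03. The median over all analysed probe sets was between -0.05 and 0.03 in every kidney. Because the 3 Dahl S differences of a probe set sum to 0, a low kidney 2 and a high kidney 3 are not separate facts. On C the low kidney 2 rested on part of the members: against the other Dahl S kidneys its median was -0.12 over 18 probe sets and 0.01 over the 11 without a suffix that marks possible cross-hybridisation.

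Counts give the same picture. Kidney 2 was the lowest Dahl S kidney for 36 of 56 members on A (64.3%, against 30.7% of all analysed probe sets), for 10 of 13 on B (76.9% against 36.1%) and for 10 of 18 on C (55.6% against 34.5%). Kidney 3 was the highest of the 5 kidneys for 33 of 56 on A (58.9% against 26.9%), for 9 of 13 on B (69.2% against 19.5%) and for 11 of 18 on C (61.1% against 24.8%). Summed over all members, the ribosomal protein signal was 3.71% of the signal of all probe sets in kidney 2 on A, 4.16% in kidney 1 and 4.39% in kidney 3. On B these shares were 1.99%, 2.23% and 2.32%, and on C 1.49%, 1.62% and 1.74%, so that kidney 2 was the lowest and kidney 3 the highest Dahl S kidney on each design.

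Kidneys 4 and 5 were set against the same reference. Their member medians were -0.10 and -0.10 on A, -0.13 and -0.04 on B, and -0.13 and -0.28 on C. The SD of the 3 Dahl S kidney medians was 0.10 on A, 0.15 on B and 0.10 on C. On A kidneys 4 and 5 were thus level with Dahl S kidney 2, on B kidney 2 was the lowest of the 5, and on C both congenic kidneys lay below kidney 2. With each array scaled to the same median, the kidney 4 member median on A turned to 0.04, with 0.10 for all probe sets, so that it still lay below that of all.

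Paired with 1 Dahl S kidney at a time, the difference depended on which Dahl S kidney was used. Against kidney 3, kidney 4 was lower for 49 of 56 members on A (87.5%, against 57.4% of all analysed probe sets). It was lower for 12 of 13 on B (92.3% against 51.8%) and for 13 of 18 on C (72.2% against 51.6%). The member medians were -0.23, -0.28 and -0.29. Kidney 5 was lower than kidney 3 for 44 members on A (78.6% against 53.3%), 12 on B (92.3% against 52.7%) and 15 on C (83.3% against 53.0%). Its member medians were -0.23, -0.17 and -0.42. Against kidney 1 the medians were -0.17, -0.17 and -0.21 for kidney 4 and -0.11, -0.07 and -0.25 for kidney 5. Over all analysed probe sets the medians against kidneys 1 and 3 lay between -0.08 and 0.05.

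Against Dahl S kidney 2 little of this was left on A and B. Kidney 4 was lower than kidney 2 for 29 of 56 members on A (51.8%, against 57.4% of all analysed probe sets). On B it was lower for 6 of 13 (46.2% against 51.4%). The member medians were -0.005 and 0.005, against -0.06 and -0.01 for all. Kidney 5 was lower for 23 of 56 (41.1% against 48.8%) and 5 of 13 (38.5% against 52.2%). Its medians were 0.07 and 0.08, against 0.011 and -0.015 for all, so that most members were higher than in kidney 2. On C members were lower than in this kidney too, with 12 of 18 lower in kidney 4 (66.7% against 52.7%, median -0.04). In kidney 5 on C, 13 of 18 were lower (72.2% against 51.7%, median -0.17). The shift of kidneys 4 and 5 against the Dahl S mean was therefore seen on A as well with the deposited scale. For kidney 5 on A it was only -0.021 with quantile and -0.022 with cyclic loess normalisation, against 0.007 and -0.001 for all probe sets. Kidney 4 on A stayed at -0.122 and -0.093 with them. On A and B the shift was about as large as, or smaller than, the distance of Dahl S kidney 2 from the Dahl S mean.

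The summed shares gave a like order. Kidneys 4 and 5 had 3.73% and 3.97% on A, inside the Dahl S range, 1.96% and 2.12% on B, with kidney 4 just below kidney 2, and 1.43% and 1.28% on C, both below kidney 2.

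**Figure D2:**
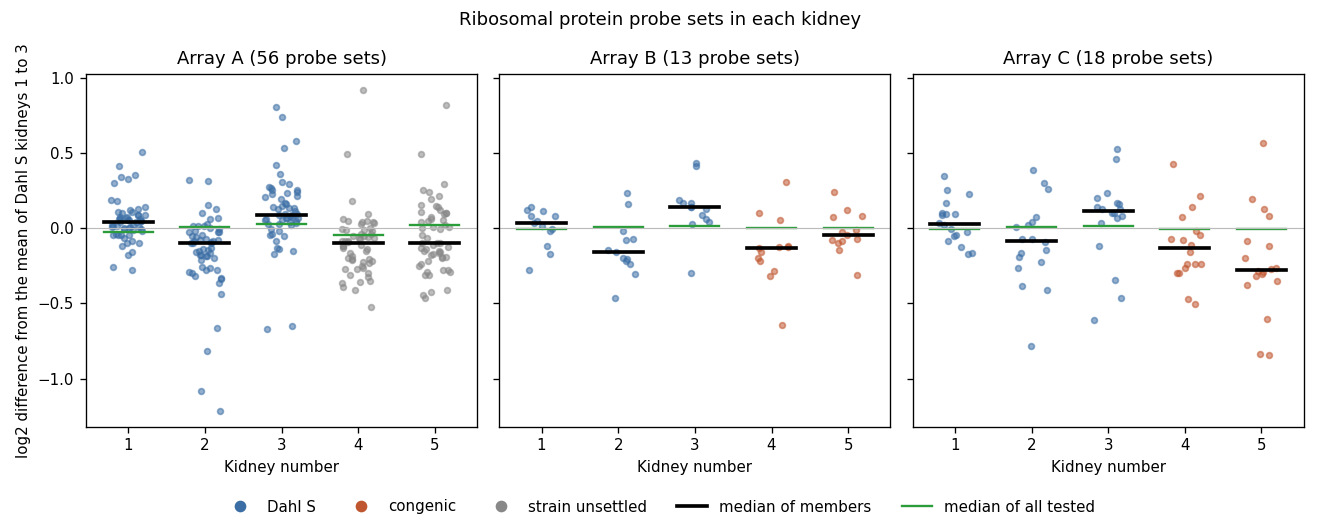
Each point is 1 ribosomal protein probe set, as its log2 difference from the mean of Dahl S kidneys 1 to 3, in each kidney on array designs A, B and C. Black bars are member medians and green bars the medians of all analysed probe sets; on A the black bars of kidneys 2, 4 and 5 are level (-0.10 each), on B kidney 2 is lowest (-0.16), on C kidney 5 (-0.28), and kidney 3 is highest on each design.

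Members did not all follow. Set against the other Dahl S kidneys only, kidney 3 was instead low by more than 0.4 for 6 probe sets: Rpl39 (-1.01) and Rpl30 (-0.98) on A, Rps28 (-0.45) on B, and 1 of 2 Rps6 probe sets (-0.92), Rpl7a (-0.70) and Rpl22l1 (-0.52) on C. Rps6, the 40S protein that S6 kinases phosphorylate, thus gave opposite orders on C, since its other probe set was 0.25 above the other Dahl S kidneys in kidney 3. On A, 15 genes had several analysed probe sets, for many of them pairs named after the same sequence entry and so not independent. All of a gene's probe sets lay below the other Dahl S kidneys in kidney 2 for 11 of the 15, and all lay above them in kidney 3 for 12. The deepest kidney 2 values on A were from probe sets of Rpl21 (-1.82 and -1.0), Rpl17 (-1.63) and Rps15 (-1.22), again against the other Dahl S kidneys.

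On B, no member differed between the strains in limma's moderated test with Benjamini-Hochberg adjustment over all 4385 probe sets (0 of 13, against 0.0912% of all probe sets at an adjusted p under 0.05, which is 4 of 4385). Member means were lower in congenic kidneys for 11 of 13 (84.6%, against 51.4% of all probe sets), with a median difference of -0.10 on the log2 scale against -0.01 for all. At an unadjusted p under 0.05 there was no member in either direction, against 2.08% of probe sets lower and 1.41% higher. Both congenic kidneys lay below all Dahl S kidneys for 3 members (23.1%, against 9.44%), Rps21, Rplp1 and Rpl37a, and above them for 1 (7.69%, against 7.73%), Rps28.

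Rps21, a 40S protein, had the largest difference on B. Its signal was 1432, 1369 and 2146 in Dahl S kidneys 1 to 3 and 1032 and 1299 in congenic kidneys 4 and 5. Means were 1649.0 ± 431 (SD, n = 3) and 1166 ± 189 (SD, n = 2), a log2 difference of -0.48 with an SE of 0.23 (limma, adjusted p = 0.998). Dahl S kidney 3 was the highest of the 5 and both congenic kidneys were the lowest. Without Dahl S kidney 3 its difference was -0.27.

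Rps28, also a 40S protein, went the other way. It read 13245.5, 13391 and 9734 in Dahl S kidneys 1 to 3 and 14853 and 14168 in congenic kidneys 4 and 5. The log2 difference was 0.27 (SE 0.18, adjusted p = 0.998), and here Dahl S kidney 3 was the lowest of the 5. Rplp1, an acidic protein of the stalk on which elongation factors act, read 30817, 28940.1 and 31818 in Dahl S kidneys 1 to 3 and 27963.5 and 27584 in congenic kidneys 4 and 5, a narrow range with both congenic kidneys at the bottom. Its log2 difference was -0.14 (SE 0.13).

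Rpl37a, a small zinc-binding 60S protein, read 52285, 47861 and 51584 in Dahl S kidneys 1 to 3 and 46369.8 and 47089 in congenic kidneys 4 and 5. Both congenic kidneys lay below every Dahl S kidney, and the log2 difference was -0.11 (SE 0.13). Rps20 read 30508.5, 24789.5 and 31810.2 in Dahl S kidneys 1 to 3 and 23694 and 27991 in congenic kidneys 4 and 5, where only congenic kidney 4 left the Dahl S range; its difference was -0.17 (SE 0.17). Rps3, the 40S protein near the mRNA entry channel, read 9952, 8014 and 9802 in Dahl S kidneys 1 to 3 and 8042 and 8702 in congenic kidneys 4 and 5, with both congenic kidneys inside the Dahl S range and a difference of -0.14 (SE 0.15).

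The other 7 analysed probe sets on B lay between -0.12 and 0.11. Rpl34 was at -0.12, Rps16 at -0.08, Rpl36a at -0.09, Rpl6 at -0.07 and Rpl7l1 at -0.01. The probe sets of Rpl7 gave -0.10 and 0.11. Adjusted p-values of all 13 were 0.998 or 0.999 (limma), and SEs from 0.13 to 0.26 exceeded or came close to most of these differences.

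On C the members' differences were larger, and again none passed (0 of 18, against 0.0% of 4420 probe sets; limma, adjusted p under 0.05). Congenic means were lower for 14 of 18 (77.8%, against 52.1% of all), with a median of -0.22 against -0.01 for all. At an unadjusted p under 0.05, 4 members were lower (22.2%, against 3.03%), namely Rps27, Rpl30, Rpl23 and Rpl22l1, and 1 was higher (5.56%, against 3.17%), a probe set of Rpl7l1. Both congenic kidneys lay below all Dahl S kidneys for 6 members (33.3%, against 12.2%), Rps27, Rpl30, Rpl23, Rpl28, Rpl36a and Rpl9, and above them for 1 (5.56%, against 10.2%).

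Rps27, a 40S protein with a zinc finger, read 21052, 24977.5 and 25485.5 in Dahl S kidneys 1 to 3 and 19276 and 15611 in congenic kidneys 4 and 5. The groups did not overlap, with means of 23838 ± 2426 (SD, n = 3) and 17443 ± 2591 (SD, n = 2). Its log2 difference was -0.45 (SE 0.16, limma, adjusted p = 0.775). For Rps27, kidney 1, not kidney 2, was the lowest Dahl S kidney.

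Rpl30, a 60S protein that also binds its own transcript in yeast, read 510.7, 587.4 and 624.4 in Dahl S kidneys 1 to 3 and 412.8 and 458.0 in congenic kidneys 4 and 5. The log2 difference was -0.40 (SE 0.15, adjusted p = 0.775), and the groups did not overlap. Rpl23, a 60S protein encoded on chromosome 10 and known to bind Mdm2, read 1486, 1325 and 1598 in Dahl S kidneys 1 to 3 and 1032 and 1200.1 in congenic kidneys 4 and 5. It differed by -0.40 (SE 0.15, adjusted p = 0.775), and again the groups did not overlap. Whether Rpl23 lies in the congenic segment was not tested.

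Rpl22l1, the paralog of Rpl22, had the largest negative difference, -0.57 (SE 0.23, adjusted p = 0.781). It read 5542, 6246 and 4115 in Dahl S kidneys 1 to 3 and 4252 and 2926 in congenic kidneys 4 and 5, and the groups overlapped because Dahl S kidney 3 was lower than congenic kidney 4. Rps6 (rc_AI178582_s_at) read 9806, 7647 and 10292 in Dahl S kidneys 1 to 3 and 7756 and 7178 in congenic kidneys 4 and 5, with a difference of -0.30 (SE 0.17). Dahl S kidney 2 lay between the congenic kidneys, so these groups overlapped too.

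The remaining 3 members with both congenic kidneys below all Dahl S kidneys were 60S proteins. Rpl28 read 23678, 20410.4 and 28005 in Dahl S kidneys 1 to 3 and 19802.5 and 19756.5 in congenic kidneys 4 and 5, a difference of -0.27 (SE 0.17) in which Dahl S kidney 2 came closest to the congenic kidneys. Rpl36a read 14005, 11920.3 and 15239 in Dahl S kidneys 1 to 3 and 11547 and 11912 in congenic kidneys 4 and 5, so that kidneys 2 and 5 nearly met, with a difference of -0.22 (SE 0.15). Rpl9 read 14747, 14234 and 16737 in Dahl S kidneys 1 to 3 and 14086 and 12399.9 in congenic kidneys 4 and 5, with kidneys 2 and 4 closest and a difference of -0.20 (SE 0.15).

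Rpl7l1, the paralog of Rpl7, was measured by 2 probe sets on C that disagreed. One (rc_AI137752_at) read 1327, 1259.6 and 1143 in Dahl S kidneys 1 to 3 and 1670.2 and 1833 in congenic kidneys 4 and 5; its difference was 0.50 (SE 0.14, limma, adjusted p = 0.775), the largest positive difference of a member. The other (rc_AI237641_at) read 2885, 3078 and 3229 in Dahl S kidneys 1 to 3 and 3021 and 2547 in congenic kidneys 4 and 5, a difference of -0.14 (SE 0.15). On B its probe set gave -0.01. The direction of Rpl7l1 is therefore that of 1 probe set in 3.

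Of the other members on C, Rpl11, a 60S protein that binds Mdm2 when ribosome assembly is disturbed, was at -0.45 with an SE of 0.29, and its Dahl S mean was 17381 ± 4319 (SD, n = 3). Without congenic kidney 5 it was at -0.04, and without congenic kidney 4 at -0.84. Rps18 was at -0.23, Rps19 at -0.18 and Rpl7a at -0.08. The probe sets of Rpl23a, also on chromosome 10, gave -0.23 and 0.10. Rps16 was at 0.11 and the second Rps6 probe set at 0.20. Adjusted p-values of the 18 ran from 0.775 to 0.970 (limma).

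**Figure D3:**
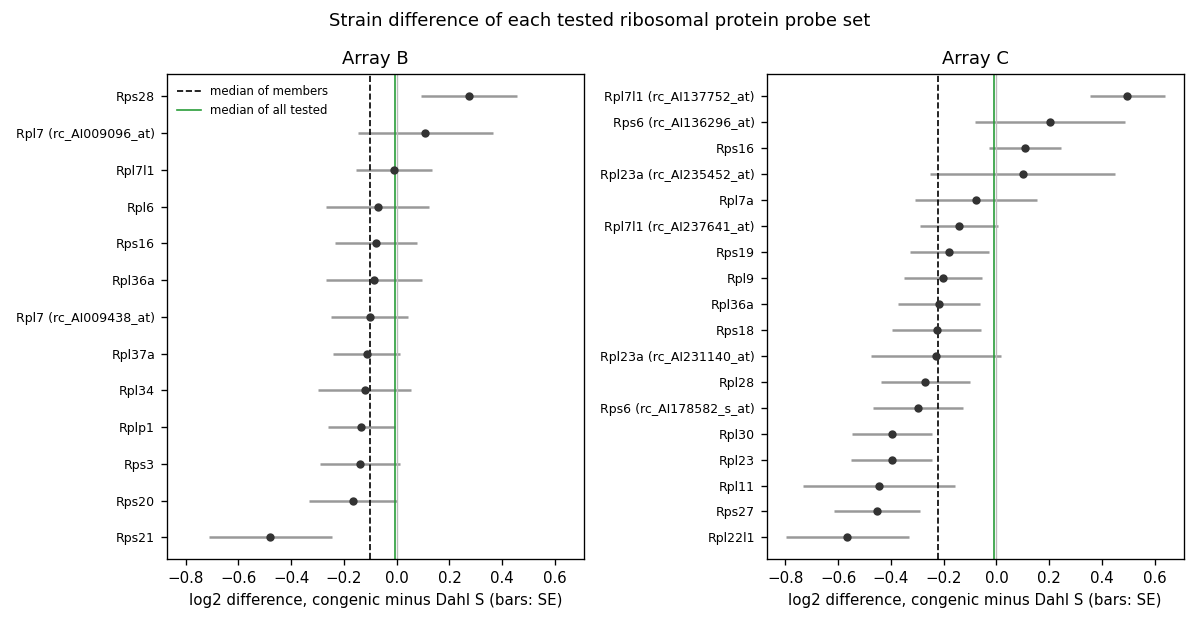
Log2 difference, congenic minus Dahl S, of each analysed ribosomal protein probe set on B (13) and C (18), with bars of 1 standard error from limma. Dashed lines are the member medians (-0.10 on B and -0.22 on C) and green lines the medians of all analysed probe sets (-0.01 on each); 11 of 13 and 14 of 18 points lie left of 0, and many bars reach 0.

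**Figure D4:**
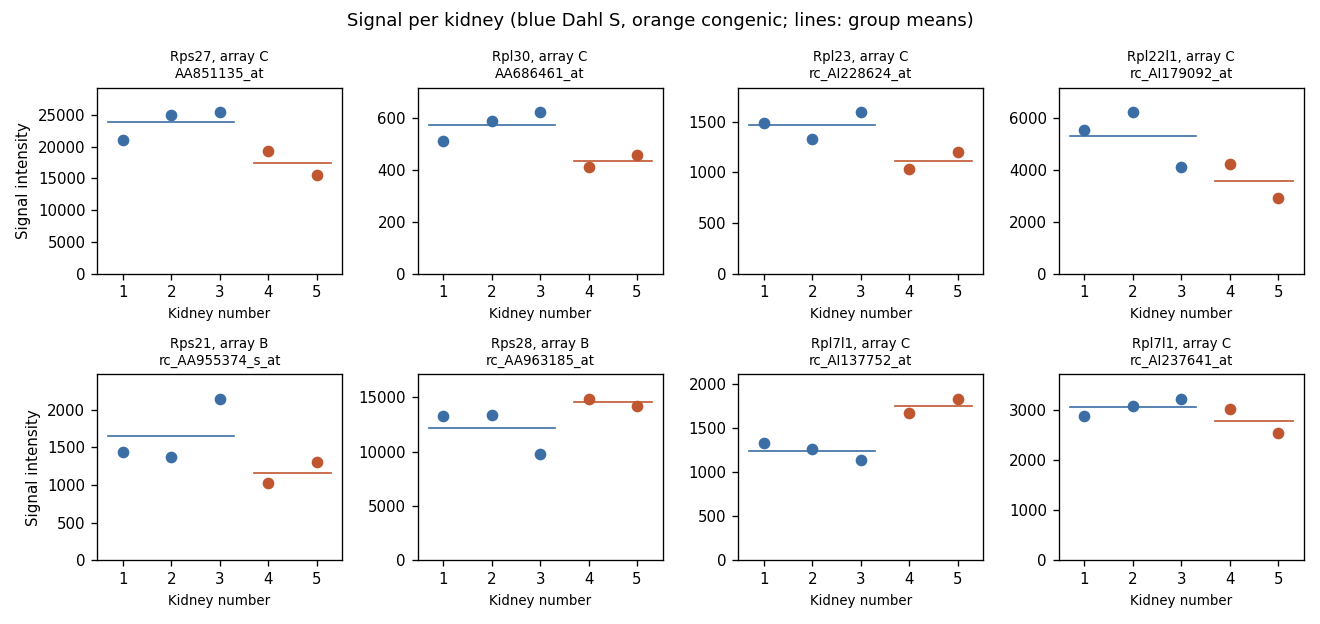
Signal intensity per kidney for 8 probe sets, from 0, with lines at the Dahl S mean (kidneys 1 to 3) and the congenic mean (kidneys 4 and 5). Rps27, Rpl30 and Rpl23 on C have both congenic kidneys below the Dahl S kidneys, the Rpl7l1 probe sets on C go opposite ways, and Dahl S kidney 3 is the extreme kidney of Rps21, Rps28 and Rpl22l1 within Dahl S.

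Fitted together, with B and C stacked into 1 table of 8805 probe sets, 25 of the 31 members were lower in congenic kidneys, with a median of -0.14 against -0.01 for all. Of all probe sets, 51.4% on B and 52.1% on C were lower. The smallest adjusted p of a member was 0.957, and 5 of the 8805 probe sets were past the threshold. The stacking adds probe sets, not kidneys. Kidneys 4 and 5 were below the mean of Dahl S kidneys 1 to 3 for 10 and 9 of 13 members on B (76.9% and 69.2%, against 49.6% and 50.3% of all) and for 14 and 14 of 18 on C (77.8% each, against 50.9% and 50.7%). The share was thus above the background in each single congenic kidney. Dahl S kidney 2, however, was below the mean of the other Dahl S kidneys for 11 of 13 members on B (against 2122 of all 4385 probe sets). On C this held for 11 of 18 (against 2140 of all 4420). On B its share was therefore larger than that of either congenic kidney.

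The median strain difference leaned on single kidneys. On B it was -0.04 without Dahl S kidney 3 and -0.04 without congenic kidney 4, and -0.18 without Dahl S kidney 2. On C it was -0.14 without Dahl S kidney 3, -0.13 without congenic kidney 5 and -0.29 without Dahl S kidney 2. It stayed negative in each of these. The member median of kidney 5 on B, -0.04, was 0.012 when Dahl S kidney 3 was left out of the reference.

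On A, where the same names have more probe sets, kidneys 4 and 5 were both below the Dahl S kidneys for 14 of 56 members (25%, against 10.1% of all analysed probe sets) and both above for 2 (3.57%, against 8.82%). Kidney 4 was below the Dahl S mean for 45 of 56 (80.4%, against 56.2%) and kidney 5 for 32 (57.1%, against 46.3%). The low members were Rps29 and Rpl24 and Rpl35 and Rps6 with 2 probe sets each, and 1 probe set of Rpl14, Rpl21, Rpl23, Rpl26, Rpl27 and Rpsa; the high ones were Rpl41 and Rpl30. With the strain of kidneys 4 and 5 unsettled, no test was made.

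Rps29, a 40S zinc-finger protein, lay lowest in kidneys 4 and 5 by both probe sets. The probe set X59051cds_s_at read 36416.5, 33336 and 36208 in Dahl S kidneys 1 to 3 and 28622 and 29153 in kidneys 4 and 5, 0.30 and 0.28 below the Dahl S mean. The probe set rc_AA965264_at read 35399.7, 36908 and 34141 in Dahl S kidneys 1 to 3 and 30562 and 32279 in kidneys 4 and 5, 0.21 and 0.14 below it.

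Rpl35, at the polypeptide exit, read 9425, 9106 and 10800.0 in Dahl S kidneys 1 to 3 and 8082.5 and 8198 in kidneys 4 and 5 by M34331_g_at. Rpl24 read 6299.5, 5609.9 and 5887 in Dahl S kidneys 1 to 3 and 5093 and 4411 in kidneys 4 and 5 by rc_AA817997_at. The other Rpl35 probe set, M34331_at, read 5643, 6554 and 6209.7 in Dahl S kidneys 1 to 3 and 5516.5 and 4497 in kidneys 4 and 5, and the other Rpl24 probe set, rc_AA817997_g_at, read 12551, 11806 and 11133 in Dahl S kidneys 1 to 3 and 10797 and 9657 in kidneys 4 and 5. Kidney 5 was the lowest of the 5 for both Rpl24 probe sets, while for Rpl35 it was kidney 4 by M34331_g_at and kidney 5 by M34331_at.

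Rpl21 (M27905_at) read 7885, 8562 and 8979 in Dahl S kidneys 1 to 3 and 6355 and 7413 in kidneys 4 and 5, but its other 3 probe sets overlapped with the Dahl S range. Rpl14 read 3389, 3422 and 3648 in Dahl S kidneys 1 to 3 and 2900.3 and 3055 in kidneys 4 and 5. Rpl23 (X58200mRNA_at) read 5701.5, 5396 and 5912 in Dahl S kidneys 1 to 3 and 4906 and 5089.5 in kidneys 4 and 5, and its probe set X58200mRNA_g_at read 13670.3, 10870.1 and 15455 in Dahl S kidneys 1 to 3 and 10327.5 and 12185 in kidneys 4 and 5, with kidney 4 below and kidney 5 inside the Dahl S range. Rpl23 was therefore low on A in kidney 4 by both probe sets and on C in both congenic kidneys.

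Rpl41, a very short 60S protein, was high, at 1412, 1636 and 1448 in Dahl S kidneys 1 to 3 and 1691 and 1733.5 in kidneys 4 and 5. Rpl30 on A read 346.9, 341.7 and 174.8 in Dahl S kidneys 1 to 3 and 518.0 and 484.6 in kidneys 4 and 5, near the limit of the filter, with Dahl S kidney 3 far below the others. Its kidneys 4 and 5 were above Dahl S by 0.91 and 0.82, while on C both congenic kidneys were below Dahl S, so its direction differed between the designs.

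The other members that were also analysed on B or C read as follows. Rps16, a 40S protein, read 16319, 12688 and 18457 in Dahl S kidneys 1 to 3 and 13711 and 14931 in kidneys 4 and 5, and Dahl S kidneys 2 and 3 held the ends of its range, as they did on B. Rps3 read 6894, 5006 and 9099 in Dahl S kidneys 1 to 3 and 6407 and 7038 in kidneys 4 and 5 by X51536cds_at and 14674, 12728 and 15648 in Dahl S kidneys 1 to 3 and 12007 and 15308 in kidneys 4 and 5 by X51536cds_g_at. Rps6 read 4913, 4208 and 4817 in Dahl S kidneys 1 to 3 and 4206 and 3491.5 in kidneys 4 and 5 by M29358_at and 9535, 9803 and 11449 in Dahl S kidneys 1 to 3 and 8706.5 and 9368.5 in kidneys 4 and 5 by M29358_g_at.

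Both Rps6 probe sets on A were lowest in kidney 4 or 5. Rpl6 read 8052, 8552 and 10942.5 in Dahl S kidneys 1 to 3 and 6329.9 and 8493.5 in kidneys 4 and 5 by rc_AA799672_s_at and 7573, 5485.5 and 7087 in Dahl S kidneys 1 to 3 and 6127 and 7089.8 in kidneys 4 and 5 by S71021_s_at, and kidney 4 lay below the Dahl S mean in each. Rpl7a read 11644, 9130.3 and 13101 in Dahl S kidneys 1 to 3 and 11159.8 and 10415 in kidneys 4 and 5. Rpl11 read 16089, 13618.5 and 15186 in Dahl S kidneys 1 to 3 and 15431 and 12992 in kidneys 4 and 5 by X62146cds_at and 9519.9, 8314 and 10584 in Dahl S kidneys 1 to 3 and 9155 and 10505 in kidneys 4 and 5 by X62146cds_g_at, and its probe sets put kidney 5 on opposite sides of the Dahl S mean.

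Among the members with the highest signals on A, Rplp0, the stalk protein that anchors Rplp1 and Rplp2, read 25749, 21963 and 27272 in Dahl S kidneys 1 to 3 and 22946 and 21072 in kidneys 4 and 5, with kidney 5 just below kidney 2. Rpl27a read 19620.3, 13301 and 15514 in Dahl S kidneys 1 to 3 and 15301 and 14177 in kidneys 4 and 5, with kidneys 4 and 5 inside the Dahl S range. Rpl19, on chromosome 10, read 16834, 15619.5 and 14108 in Dahl S kidneys 1 to 3 and 14797 and 12665.5 in kidneys 4 and 5, with kidney 5 alone below Dahl S. In all 3 the Dahl S kidneys spanned more than the distance from their mean to kidney 4.

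The 15 genes with several probe sets on A are no independent check on single probe sets. For Rpsa, Rps6, Rpl35, Rpl24, Rpl27, Rps3, Rpl23 and Rpl11 they are pairs named after the same sequence entry. Other genes with several probe sets were not counted in this way. Of all analysed single probe sets, kidney 4 was below the Dahl S mean for 56.2% and kidney 5 for 46.3%. All of a gene's probe sets lay below the Dahl S mean in kidney 4 for 12 of the 15 and disagreed for 3. In kidney 5 all lay below for 9, all above for 2, and they disagreed for 4. Thus kidney 4 was the more uniform of these kidneys on A, whereas on C kidney 5 was the lower.

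10 genes were analysed on 2 or more designs, and Rps16 on all 3. Rps16 differed from Dahl S by -0.19 and -0.07 in kidneys 4 and 5 on A, by -0.13 and -0.03 on B and by 0.14 and 0.08 on C. Rps3 on B gave -0.20 and -0.08, and its probe sets on A gave -0.08 and 0.05, and -0.25 and 0.10. Single genes did not keep 1 direction over the designs as closely as the member medians did.

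By subunit, 40S and 60S members had like medians on B and C, a difference that was not tested. The strain medians were -0.14 for 5 40S probe sets and -0.09 for 8 60S probe sets on B, and -0.20 for 6 and -0.22 for 12 on C. On A the kidney 4 median was -0.16 for 18 40S probe sets and -0.09 for 38 60S probe sets, and the kidney 5 median -0.03 and -0.11. Leaving out the members on chromosome 10 gave -0.11 and -0.04 in kidneys 4 and 5 on A, and -0.22 for the strain difference on C, against -0.10, -0.10 and -0.22 with them; on B no analysed member lies there. Probe sets with several symbols of which at least 1 is a member gene were not members, and their 38 on A had medians of -0.09 and -0.14 in kidneys 4 and 5, and 8 on C a strain median of -0.18, a description added after the data were seen.

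Bright and dim members differed in their medians. Of all probe sets with a mean signal at or above the 75th percentile, the strain median was 0.00 on B and -0.03 on C, and kidneys 4 and 5 on A were at 0.00 and 0.00. Members in that range were at -0.10, -0.23, and -0.11 and -0.10. The analysed members with a lower mean signal were 5 on C, with a strain median of 0.10, and 7 on A, with medians of -0.07 and 0.10 in kidneys 4 and 5; B had none. These groups were also added after the data were seen.

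Other genes of translation were described from lists chosen for their role, and 0 members of each passed on B or C (limma, adjusted p under 0.05, as for the members); adjusted p-values were 0.998 or above on B and 0.775 or above on C. Elongation factors bring tRNAs and move the ribosome. Genes listed under this name were also low in kidney 2 and high in kidney 3. Their medians against the Dahl S mean were -0.07 and 0.13 on A (7 probe sets) and -0.16 and 0.17 on C (3). On B they were -0.23 and 0.26, but from Eef1e1 and Eefsec alone (2), with no probe set of Eef1a1 or Eef2. On C 3 of 3 of the listed probe sets were lower in congenic kidneys (against 52.1% of all), led by Eef1b2 (-0.21) and Eif5a (-0.11). On B 1 of 2 was lower (against 51.4%), Eef1e1 (-0.17) and not Eefsec (0.05). Eef2, the translocase, was lower in kidney 5 than in every Dahl S kidney on A for 3 of 4 probe sets, at -0.54, -0.51 and -0.30.

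Initiation factors place the ribosome on the mRNA, and their list also holds regulators of this step (Eif2ak1 and Eif4ebp2). Of the listed probe sets on B, 15 of 19 were lower in congenic kidneys (against 51.4% of all analysed), with a median of -0.09. On C 14 of 20 were lower (against 52.1%), with a median of -0.11. Eif4b, a helicase cofactor with a TOP mRNA, had differences of -0.34 and -0.24 on B; its probe sets on C disagreed, at -0.32 and 0.05. Eif3b on C had -0.61. Other TOP mRNAs were lower for 10 of 11 on C (against 52.1% of all), with a median of -0.20. Eif4b (-0.32 by the lower of its probe sets) and Eif3h (-0.29) led there. On B 2 of 3 were lower (against 51.4%). Most TOP probe sets on C also stand in another of these lists (Eif4b, Eif3e, Eif3f, Eif3h, Eef1b2, Eef1d and Rack1). On A all elongation factor probe sets are in the TOP list too, and on C Eif5a is both an elongation and an initiation factor. The counts of these lists are therefore not independent.

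Of ribosomal proteins outside the name rule, Fau was at -0.19 and -0.05 by its 2 probe sets on C and Rack1 at -0.18. Mitochondrial ribosomal proteins are the components of the separate ribosome of mitochondria. Mrps27 (0.37) and Mrpl20 (-0.30) led on B, and Mrps16 (-0.29) and Mrpl34 (-0.25) on C. On B 10 of 29 of these proteins were lower (against 51.4% of all analysed probe sets), with a median of 0.03. On C 34 of 49 were lower (against 52.1%), with a median of -0.08. Their medians in kidneys 2 and 3 were 0.01 and -0.02 on B, with signs opposite to the members, and -0.02 and 0.02 on C and -0.06 and 0.14 on A, with the same signs as the members.

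Ribosome assembly factors were lower for 13 of 25 on B (against 51.4% of all), with a median of -0.01. On C 17 of 23 were lower (against 52.1%), with a median of -0.10. Their leading genes went different ways, with Rrp1b at 0.30 and Wdr12 at -0.30 on B, and Ltv1, a late 40S assembly factor, at 0.81 by 1 probe set and -0.04 by the other, and Fbl, the snoRNP methylase, at -0.27 on C. Regulators of ribosomal protein synthesis had medians of -0.03 and -0.09, with Gabpb1 at 0.25 and Larp1, which binds TOP starts, at 0.16, -0.06 and -0.03 by its 3 probe sets on B, and Larp1 at -0.19 and Yy1 at -0.09 on C. None of these lists was compared with the members by a test.

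**Figure D5:**
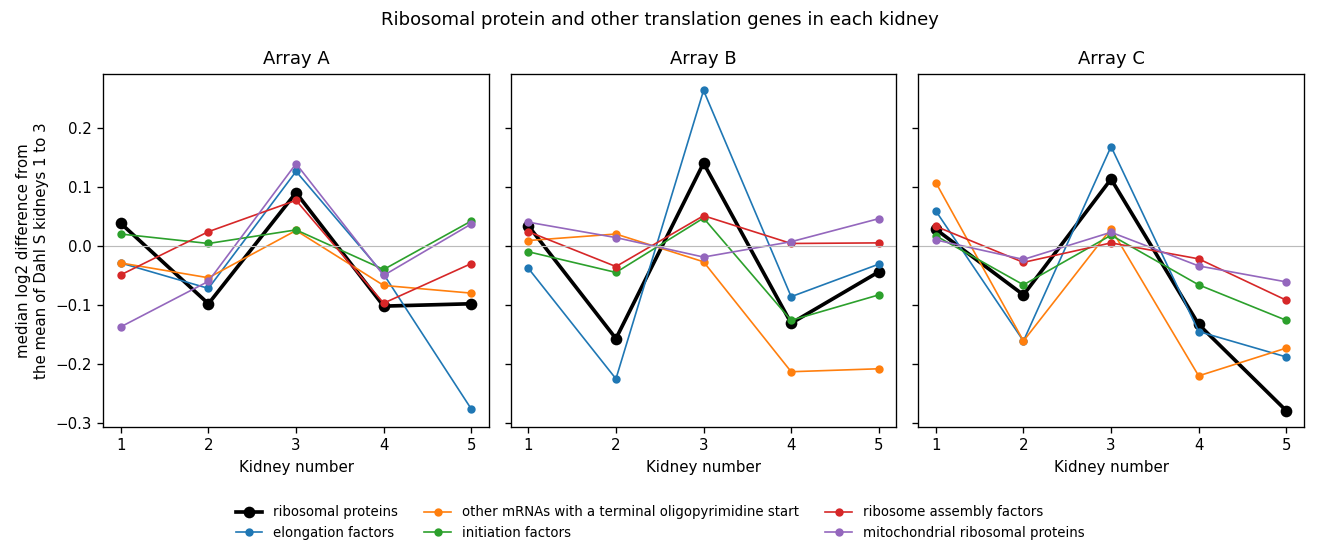
Median log2 difference per kidney from the mean of Dahl S kidneys 1 to 3, for ribosomal protein probe sets (thick black) and 5 lists of other translation genes on A, B and C. The elongation factor line is low in kidney 2 and high in kidney 3 with the black line on each design. On B, where it rests on Eef1e1 and Eefsec alone, it is at -0.23 and 0.26 against -0.16 and 0.14. The mitochondrial ribosomal protein line stays near 0 on B and C. Some probe sets stand in several lists.

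Some other measures moved with the same kidneys, and some did not. The summed signal of leukocyte marker probe sets was 4107, 2693 and 3306 in Dahl S kidneys 1 to 3 and 2649 and 3024 in kidneys 4 and 5 on A (14 probe sets, 3 analysed), 13000, 8535 and 11150 and then 8816 and 10960 on B, and 7798, 4928 and 6069 and then 5536 and 7035 on C. Kidney 2 was thus the lowest Dahl S kidney in these markers as well, but kidney 1 and not kidney 3 was the highest. The 21 tubule marker probe sets on A summed to 285300, 322900 and 277200 in kidneys 1 to 3 and 291700 and 257900 in kidneys 4 and 5, with kidney 2 the highest. Red blood cell markers summed to 33980, 23490 and 32210 in Dahl S kidneys 1 to 3 and 31750 and 35860 in kidneys 4 and 5 on A (3 of 3 analysed). On B these sums were 106500, 83910 and 93980 and then 95890 and 111100 (2 of 2), so that kidney 2 was the lowest of the 5 on A and B, while kidney 5 was the highest. On C the 1 red blood cell probe set was below the filter. On A, dividing cell markers (8 of 13 analysed) summed to 11490, 10660 and 8261 in Dahl S kidneys 1 to 3. Kidney 3 was thus the lowest of the 5, with 9826 and 9708 in kidneys 4 and 5. On B kidney 3 was the lowest Dahl S kidney as well (4394, 5171 and 4201). On C it was the highest (2703, 2450 and 2717). Podocyte marker sums were highest in kidney 4 on B (5470, against 2691 to 3239 in Dahl S). So they were on C (1887, against 777.4 to 1327), but not on A. These sums rest on 1 gene, Podxl: on B it gave 5106 of the 5470 (1 of 2 probe sets analysed), and on C it was the 1 probe set. Endothelial marker sums were 1339, 1303 and 1704 in Dahl S kidneys 1 to 3 and 1285 and 1968 in kidneys 4 and 5 on A. On B they were 5137, 6290 and 5735 and then 6660 and 5949, and on C 4722, 4260 and 4210 and then 4800 and 4107. The highest of the 5 was kidney 5 on A and kidney 4 on B and C. The part of these cell types in the ribosomal protein pattern was not tested.

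The ratio of GAPDH control signal at the 3' end to the 5' end, a sign of RNA integrity, was 1.07, 1.06 and 1.07 in Dahl S kidneys on A and 1.04 in each of kidneys 4 and 5. On C it was 1.09, 1.09 and 1.11 against 1.05 and 1.04, and on B 1.18, 1.11 and 1.14 against 1.07 and 1.17. Kidneys 4 and 5 were thus below Dahl S in this ratio on A and C, and on B kidney 4 alone was. For beta-actin, the same ratio was 1.45, 1.55 and 1.42 in Dahl S against 1.32 and 1.35 on A, 1.37, 1.26 and 1.23 against 1.30 and 1.36 on B, and 1.49, 1.503 and 1.38 against 1.37 and 1.45 on C. Of the Dahl S kidneys, kidney 2 was the highest and kidney 3 the lowest in the actin ratio on A and C, and on C congenic kidney 5 lay inside the Dahl S range. The part of these ratios in the member values was not tested. The labels name no batch.

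Of the 10 member probe sets below the filter, 1 of 2 for Rpl3l on A (rc_AA891037_g_at), the 1 for Rpl3l on C and 1 of 2 for Rpl36a on B lay below the floor in every kidney. The analysed Rpl3l probe set on A, rc_AA891037_at, read 397.2, 490.7 and 574.1 in Dahl S kidneys 1 to 3 and 419.1 and 574.5 in kidneys 4 and 5, with overlap. Rps24 on B (263.2, 248.2 and 242.9 in Dahl S, 208.5 and 180.6 in the congenic ones) was low and on C (142.8, 152.4 and 139.3 in Dahl S, 209.7 and 206.2 in congenic kidneys) high, with 3 Dahl S values below the floor of 153.6 on C. Without a filter Rps24 on C passed the threshold (adjusted p = 0.0305, limma), with its Dahl S values set equal by the floor. Rpl5 (A), Rpl9 and Rpsa (B), and Rpl34 and Rps15a (C) did not reach the filter either and showed overlapping kidneys except Rpl34, where both congenic kidneys lay below Dahl S (430.9, 409.5 and 774.5 against 359.6 and 380.8).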

How the data were processed

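Total RNA of kidneys from 5-week-old rats was hybridised to 15 single-channel arrays of 3 designs, per the labels. The authors deposited 1 linear signal intensity per probe set and array; not given in the sources used here are its software and any background correction, and no detection calls are used. From the values, arrays had been scaled to a common trimmed mean, and that scale was kept. Designs were kept apart. A floor was set at the 25th percentile (85.1 on A, 140.1 on B, 153.6 on C) before log2 was taken. Probe sets with a mean signal of at least the median (319.5, 485.8 and 510.3) were analysed, 4411, 4385 and 4420 in all, without the 59 control probe sets of each design.

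Symbols came from the platform annotation, updated through gene identifiers to RefSeq names of GRCr8, used for names and chromosomes only; 96 of the 97 members matched. Strains were compared on B and C in R 4.3.3 by limma 3.58.1 (functions lmFit and eBayes), with Benjamini-Hochberg adjustment over all analysed probe sets of a design. The procedure was tested on simulated data. No sample of A was tested.

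The members, the gene lists and the tests were chosen with earlier results of these data known. On B and C every analysed member was named, with every kidney's value for the 6 smallest p and for members whose strain values did not overlap. On A every value was given for members analysed on another design, for the 6 with the highest signal, and for up to 6 in each direction with both kidneys 4 and 5 outside the Dahl S range. From the translation lists the 2 smallest p per design were named; for cell type marker lists only summed signals are given. The alternatives were other normalisations, floors, filters, variance models, probe set choices and leaving out each kidney.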

Additional observations from a re-analysis of the deposited data

How the results depend on the processing

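With 3 Dahl S and 2 congenic kidneys the data give wide intervals, and probe sets near the floor have only compressed differences. The member median stayed negative on B (-0.18 to -0.04 leaving out each kidney, -0.12 to -0.08 otherwise) and on C (-0.29 to -0.13, and -0.26 to -0.14). On A, the kidney 5 member median of -0.098 shrank to -0.021 with quantile and -0.022 with cyclic loess normalisation. Against Dahl S kidneys 1 to 3, scaling each array to the same median turned kidney 4 on A to 0.044, where it also moved the median of all probe sets from -0.05 to 0.10; leaving out a kidney gave -0.164 to 0.008 for kidney 5 on A, -0.129 to 0.012 for kidney 5 on B (0.009 with median scaling) and -0.236 to -0.090 for kidney 4 on C, which was also -0.236 with the 75th percentile filter or 1 probe set per gene. Against the other Dahl S kidneys, leaving out a kidney gave -0.088 to 0.16 for kidney 1 on A, -0.064 to 0.128 for kidney 1 and 0.064 to 0.309 for kidney 3 on B, -0.122 to 0.075 for kidney 1 on C and -0.235 to -0.075 for kidney 2 on C, which was 0.012 with only probe sets without a cross-hybridisation suffix. Of all probe sets on B, 4 passed, 1 with quantile or cyclic loess normalisation, median scaling, either other floor, the 75th percentile filter or quality weights, and 0 to 31 leaving out a kidney (31 without congenic kidney 5). On C 0 passed, 2 without a filter (1 of them a member), 1 with an intensity trend, and 0 to 35 leaving out a kidney (35 without congenic kidney 5). No other alternative gave a member past the threshold. The causes were not tested. Reversals were of small differences: Rpl7l1 on B (0.004 with quantile normalisation, 0.012 with median scaling, and -0.073 to 0.06 leaving out a kidney), and, leaving out a kidney, Rpl7 (-0.13 to 0.33, rc_AI009096_at), Rpl36a (-0.23 to 0.032), Rpl6 (-0.22 to 0.078) and Rpl34 (-0.32 to 0.074) on B, and Rpl7a (-0.31 to 0.072), Rps6 (-0.10 to 0.40, rc_AI136296_at) and Rpl23a (-0.29 to 0.36 and -0.44 to 0.001) on C. No paired analysis was possible because the groups compared, kidneys 1 to 3 and kidneys 4 and 5, share no number.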
